A study of Mus musculus with 6 samples.

Results

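The enzymes that modify and crosslink collagen were followed in mouse primary white adipocytes given a miR-182-5p mimic. The set holds 10 genes chosen by symbol, namely the lysyl oxidases Lox, Loxl1, Loxl2, Loxl3 and Loxl4, the lysyl hydroxylases Plod1, Plod2 and Plod3, and P4ha1 and P4ha2, which encode catalytic alpha subunits of prolyl 4-hydroxylase. All 10 were found among the 22609 genes listed, and all 10 passed the filter on low counts, which kept 13117 genes. The cells were grown from the stromal vascular fraction of inguinal white adipose tissue (iWAT), a subcutaneous fat depot, and were then differentiated into adipocytes in culture. The donors were male C57BL6 mice of 3 weeks by the sample labels. RNA from 3 samples with mimic control was compared with RNA from 3 samples with miR-182-5p mimic, a synthetic RNA that acts as the mature miRNA. The labels call the groups control vector and miR182 overexpression and name electroporation, whereas the methods of the study describe a mimic delivered with a lipid reagent and older mice. No allele was changed in either group. Neither source says whether the samples came from separate cultures or animals, so the p-values measure the spread between these samples, which may be technical.

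Prolyl 4-hydroxylases act on collagen chains inside the endoplasmic reticulum, where the hydroxyproline they make keeps the triple helix stable at body temperature. Lysyl hydroxylases act there too, and the hydroxylysine they make carries sugars and later forms crosslinks that are harder to break than those of unmodified lysine. Lysyl oxidases are copper enzymes that work outside the cell, where they turn lysine and hydroxylysine into aldehydes that join neighbouring collagen or elastin molecules. In fat, collagen and its crosslinks set how far the tissue can stretch, and several of these genes are known targets of hypoxia-inducible factors.

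The mature miRNA that the mimic stands for is printed because targets of a miRNA often hold a match to its seed, bases 2 to 8, shown here in capitals. RefSeq places it on chromosome 6, 30165962 to 30165986, minus strand, GRCm38.p6, 5′ to 3′.
mmu-miR-182-5p: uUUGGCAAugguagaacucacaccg
The methods of the study print another mature sequence under this name, with another seed, and the sources used here do not give the letters of the mimic itself, so the counts that follow hold for the RefSeq sequence.
The letters TTGCCAA, which pair with this seed, were absent from the longest annotated 3′-UTR of all 10 enzyme genes. Of the 11439 tested genes with an annotated 3′-UTR, 1454 (12.71%) held them. The longer match TTGCCAAA was likewise absent from the 10 genes and present in 602 (5.263%) of all. A shorter pairing with an A opposite base 1, TGCCAAA, occurred 1 time in Plod2 and 1 time in Plod3, and in 1644 (14.37%) of all genes. That site was added after the data had been seen, when Plod2 and Plod3 were known to be lower with mimic. Whether such matches go with lower levels was not tested. Loxl4 held TTGCCAA 1 time in its coding sequence, and no member held it in the 5′-UTR. A match of letters is a description and was not tested for binding. The libraries were made from polyadenylated RNA, so the level of the mimic itself was not measured here.

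Reads counted on genes ranged from 25869810 to 26484794 per sample with mimic control and from 25960631 to 28796712 with mimic. Loxl4, the least abundant of the 10 enzymes, had 916 to 1220 reads per sample. Levels are given as CPM, reads of a gene per 1000000 reads, with library sizes scaled by the trimmed mean of M-values (TMM). A gene is said to have risen or fallen where its p from the quasi-likelihood test of edgeR, adjusted by the Benjamini-Hochberg method across all 13117 genes, was under 0.05. It is said to be called where it also changed by 1.5-fold or more, the cutoffs the study used. The check of the labelled cell type found adipocyte mRNAs in every sample. The summed level of 10 adipocyte markers, fatty acid binding protein Fabp4 and adiponectin Adipoq among them, was 12758 to 13542 CPM in the control samples and 8851 to 10020 CPM with mimic. Of these 10 genes, 7 fell, 1 (Lep, leptin) rose and 2 (Fabp4 and Retn) were called, both lower. Fibroblast and progenitor markers were also present, at 2868 to 2878 CPM in sum with mimic control and 2354 to 2493 CPM with mimic. Macrophage markers (12.6 to 14.3 CPM against 11.6 to 14.3 CPM) and endothelial markers (7.78 to 9.15 CPM against 4.97 to 5.67 CPM) were low in sum. Ptprc, the pan-leukocyte marker, had 0 to 4 reads and Pecam1 3 to 11 reads per sample. Csf1r (6.31 CPM on average) and Cd68 (5.20 CPM) were the most abundant macrophage markers, and neither passed. Lyz2 (1.02 CPM) was called lower, as it was in 9 of 14 alternative fits. Tek, the most abundant endothelial marker, was called lower, from 6.05 to 2.43 CPM on average (adjusted p = 1.49e-06 by edgeR). Cdh5 and Kdr did not pass. In such bulk RNA, fewer cells of a type and less RNA per cell cannot be told apart.

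Prolyl 4-hydroxylase and most lysyl oxidase mRNAs were higher with miR-182-5p mimic, whereas 2 of the 3 lysyl hydroxylases were lower. Of the 10 enzymes, 7 rose, 2 (Plod2 and Plod3) fell and 1 (Loxl4) did not pass the test. Over all genes tested, 3037 (23.2%) rose and 3087 (23.5%) fell, 46.7% together. The changes were small. None of the 10 reached 1.5-fold, so edgeR called 0 of 10, against 977 (7.45%) of all genes, of which 258 (1.97%) were higher and 719 (5.48%) lower. DESeq2 and limma-voom also called 0 of 10, although all 10 had an unadjusted p under 0.05 in edgeR, as did 6963 of the 13117 genes. In 7 enzymes the lowest mimic sample exceeded the highest control sample, in 2 the highest mimic sample was under the lowest control sample, and in 1 the groups overlapped. The same held upward for 27.3% and downward for 27.5% of all genes, so that 54.8% did not overlap. The median log2 fold change of the 10 was 0.19, and that of all genes was -0.0043. The summed level of the 10 genes was 5964 to 6080 CPM in control samples and 7112 to 7372 CPM with mimic.

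**Figure D1:**
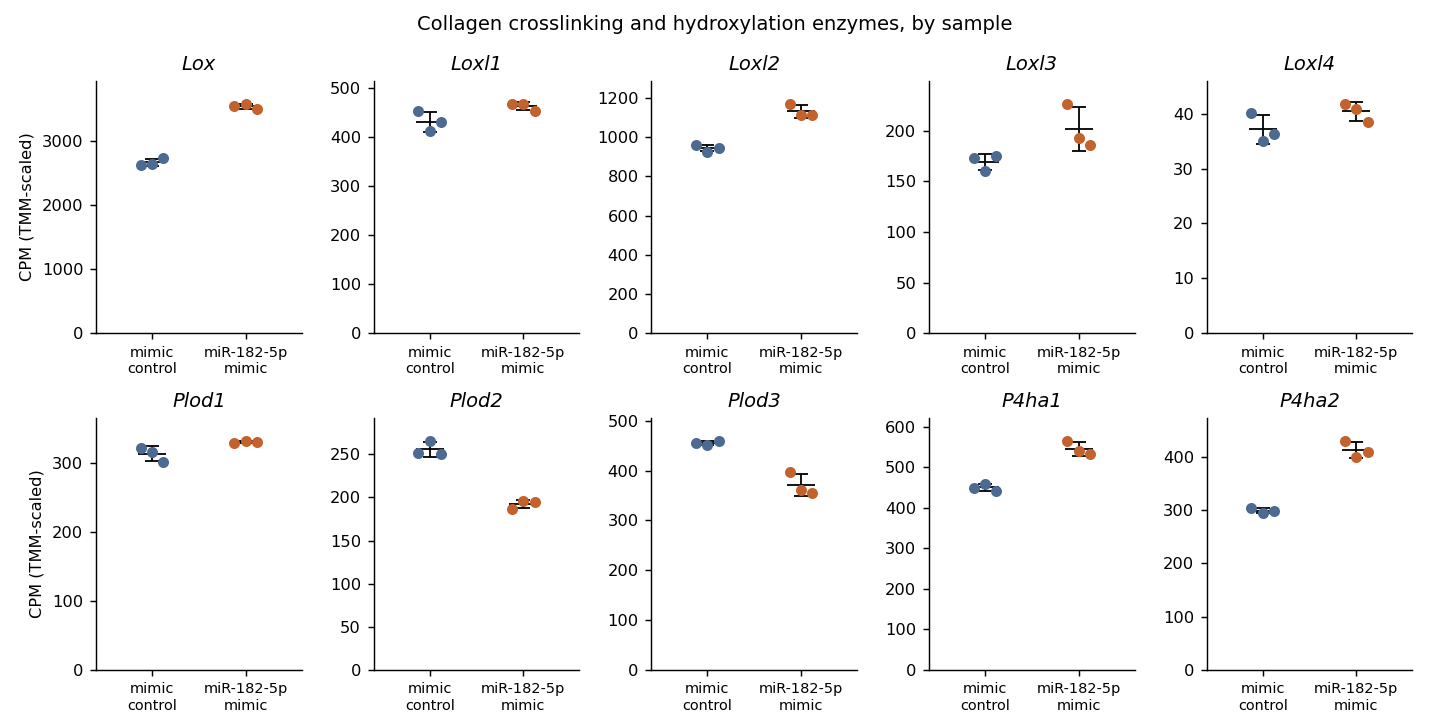
Level of each enzyme mRNA in CPM (linear axes from 0) in the 3 mimic control samples (blue) and the 3 miR-182-5p mimic samples (orange), with black marks for the mean and SD. Lox, Loxl2, P4ha1 and P4ha2 sat higher in all 3 mimic samples, Plod2 and Plod3 sat lower, and Loxl4 overlapped.

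P4ha2 and P4ha1 encode alternative catalytic subunits that pair with protein disulfide isomerase to make the active prolyl 4-hydroxylase. P4ha2 (GENCODE M21 on GRCm38, chromosome 11, 54100095 to 54131665, plus strand) was at 304, 295 and 299 CPM in the control samples and at 431, 401 and 409 CPM with mimic. The lowest mimic sample lay well above the highest control sample. The log2 fold change was 0.47 ± 0.031 (SE, n = 3 per group, Benjamini-Hochberg adjusted p = 3.34e-08 by edgeR), a 1.38-fold rise, with a 95% interval of 0.40 to 0.53. This was the largest change among the 10 enzymes. P4ha1 (chromosome 10, 59323296 to 59373304, plus strand), the subunit with more reads here, was at 448, 460 and 443 CPM with mimic control. It reached 566, 540 and 534 CPM with mimic, again with no overlap. Its log2 fold change was 0.28 ± 0.031 (SE), or 1.21-fold, with an adjusted p of 4.84e-06 in the same edgeR fit.

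Lox, the founding lysyl oxidase, is on chromosome 18 and had the highest level of the 10 genes. It was at 2631, 2641 and 2738 CPM in the control samples and at 3556, 3584 and 3499 CPM with mimic. The samples within each group lay close together and the groups were far apart. The log2 fold change was 0.41 ± 0.032 (SE, n = 3 per group), a rise of 32.8%, with a Benjamini-Hochberg adjusted p of 1.59e-07 by edgeR. In CPM the rise of Lox was larger than that of any other of the 10 enzymes, since its mean went from 2670 ± 59.0 CPM to 3546 ± 43.4 CPM (SD).

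Loxl2, which crosslinks collagen IV of basement membranes, was the second most abundant lysyl oxidase, at 961, 927 and 946 CPM with mimic control. All 3 mimic samples were higher, at 1171, 1113 and 1113 CPM. The log2 fold change was 0.26 ± 0.031 (SE), with an adjusted p of 9.72e-06 in the edgeR fit. Loxl3 rose by a like amount, 0.25 ± 0.059 (SE) on the log2 scale (adjusted p = 0.00259 by edgeR), but with a wider spread between samples. Its control samples were at 173, 160 and 175 CPM, and its mimic samples at 227, 193 and 186 CPM. The first mimic sample stood highest, and without it the log2 fold change of Loxl3 was 0.16, which still passed the test. Of the 4603 exonic bases of Loxl3, 535 overlap Htra2 on the opposite strand, and whether the counting used strand is not given in the sources used here. Htra2 had a log2 fold change of 0.071 (adjusted p = 0.299 by edgeR).

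Loxl1, best known for its part in elastic fibres, and Loxl4 changed least among the lysyl oxidases. Loxl1 was at 453, 413 and 430 CPM with mimic control and at 468, 468 and 454 CPM with mimic. Its highest control sample fell just short of its lowest mimic sample. The log2 fold change of 0.10 ± 0.034 (SE, adjusted p = 0.026 by edgeR) lost the test without control replicate 2 (0.13), control replicate 3 (0.076) or mimic replicate 2 (0.0727). Loxl4, the lowest of the 10, was at 40.1, 35.1 and 36.3 CPM with mimic control and at 41.8, 40.9 and 38.6 CPM with mimic, and the groups overlapped. Its log2 fold change was 0.12 (95% interval 0.00058 to 0.24, adjusted p = 0.0927 by edgeR), which did not pass, though it did without control replicate 1 (adjusted p = 0.0185) or without mimic replicate 3 (adjusted p = 0.0489).

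Plod2, the lysyl hydroxylase that acts on the telopeptides at the ends of collagen chains, fell. It is on chromosome 9, 92542223 to 92608428, plus strand. Its control samples were at 251.1, 265.9 and 250.6 CPM and its mimic samples at 186.5, 195.7 and 194.3 CPM. All 3 mimic samples were far below the controls. The log2 fold change was -0.41 ± 0.032 (SE, n = 3 per group), 0.751 of the control level, with a Benjamini-Hochberg adjusted p of 1.55e-07 by edgeR. In size this change was close to that of Lox, in the opposite direction.

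Plod3, which also has glycosyltransferase activity and adds sugars to hydroxylysine, fell from 456, 451 and 460 CPM to 396, 362 and 354 CPM. The first mimic sample was the nearest to the controls but did not overlap them. The log2 fold change was -0.30 ± 0.037 (SE, adjusted p = 1.73e-05 by edgeR), or 0.814 of the control level. Of its 4519 exonic bases, 538 lie in other genes, mostly Znhit1 on the opposite strand, which had a log2 fold change of -0.018 (adjusted p = 0.788 by edgeR). Plod1, which acts on lysines within the triple helix, went the other way by a small amount. It was at 322, 316 and 301 CPM with mimic control and at 329, 332 and 329 CPM with mimic. Its log2 fold change of 0.076 ± 0.030 (SE, adjusted p = 0.0486 by edgeR) sat at the threshold. It lost the test with the upper-quartile normalization (0.088), with no filter on low counts (0.0528), and without control replicate 2 (0.0756), control replicate 3 (0.236), mimic replicate 2 (0.109) or mimic replicate 3 (0.0652). Without control replicate 3 the log2 fold change of Plod1 was 0.050.

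**Figure D2:**
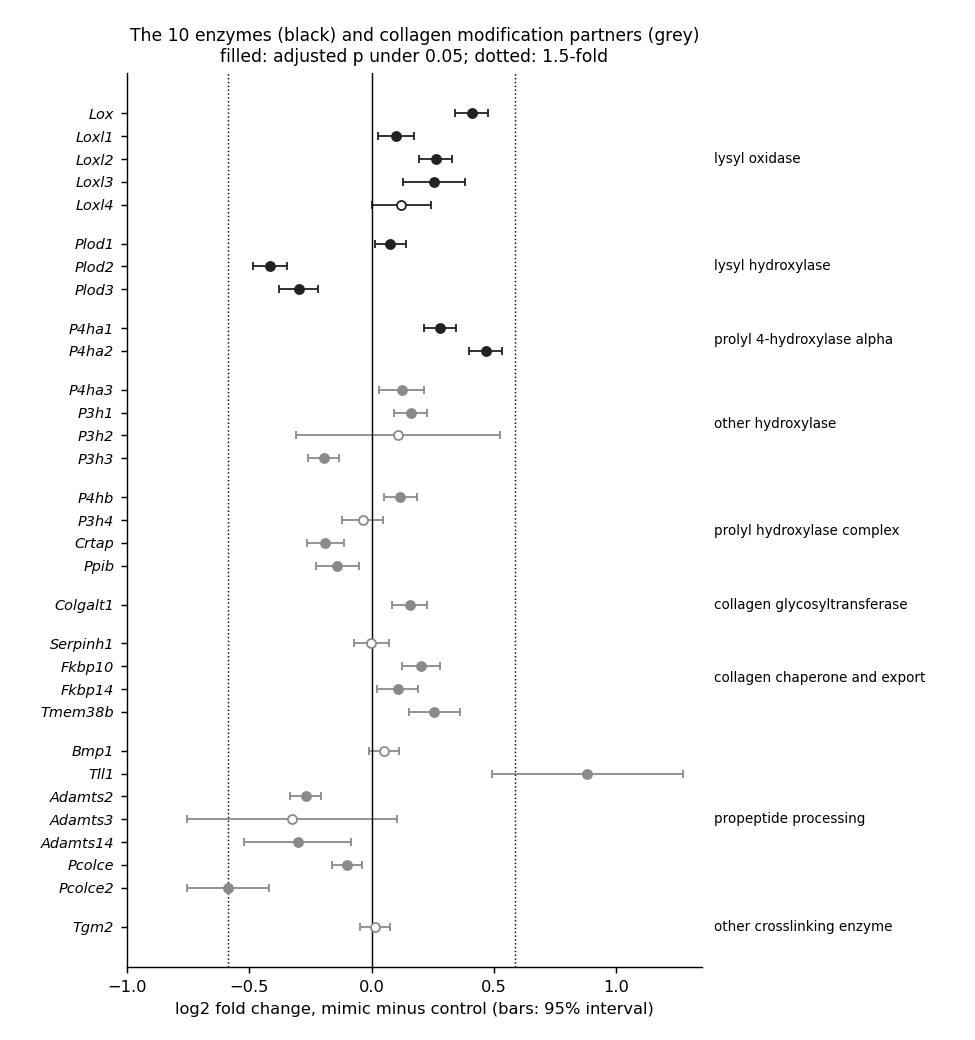
Log2 fold change (mimic minus control) of the 10 enzymes (black) and of 21 tested partner genes (grey), each with its 95% interval. Filled points passed an adjusted p of 0.05, the dotted lines mark 1.5-fold, and the labels at the right name the role of each group. The enzymes lie inside the dotted lines, with Plod2 and Plod3 to the left of 0.

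To compare levels between genes, CPM was divided by the exon length in kilobases, taken as the union of all annotated exons of a gene. For P4ha2 this union is 6239 bases. Its coding transcript with the longest 3′-UTR has only 84, 1608 and 402 bases (5′-UTR, coding sequence and 3′-UTR). For Plod1 the union is 6765 bases against 90, 2187 and 966 bases. The order of genes below holds for union lengths and was not tested with transcript lengths. On this scale Lox led in the control samples with 559 ± 12.4 CPM per kb (SD, n = 3), followed by Loxl2 with 175 ± 3.08, Loxl1 with 131.0 ± 6.15, P4ha1 with 110 ± 2.15 and Plod3 with 101 ± 0.998. P4ha2 (48.0 ± 0.719), Plod2 (47.5 ± 1.61) and Plod1 (46.3 ± 1.57 CPM per kb) came next and, on union lengths, did not differ beyond their spread. Loxl3 (36.8 ± 1.77) and Loxl4 (8.82 ± 0.629 CPM per kb) were lowest. With mimic the middle of this order opened up. P4ha2 stood at 66.3 ± 2.49 CPM per kb, Plod1 at 48.8 ± 0.256 and Plod2 at 35.6 ± 0.923, so that Plod2 was below Loxl3 (43.9 ± 4.71).

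The make-up of each family moved as well. Lox made 61.4% ± 0.931 (SD, n = 3) of the lysyl oxidase level per kb with mimic control and 64.8% ± 0.648 with mimic, while Loxl1 went from 14.4% ± 0.572 to 12.3% ± 0.0702. Among the lysyl hydroxylases Plod1 made 23.8% ± 0.661 with mimic control and 29.3% ± 0.770 with mimic, and Plod2 went from 24.4% ± 0.694 to 21.4% ± 1.03. The share of P4ha2 in the sum of P4ha1 and P4ha2 was 30.5% ± 0.668 with mimic control and 33.3% ± 0.359 with mimic. The third alpha subunit, P4ha3 (77.4 CPM on average with mimic control), was left out of this share. The size of each share depends on the union exon lengths used, and shares by transcript length were not computed. The groups did not overlap for any of these 5 shares, and the exact two-sided permutation test gave p = 0.1 for each, the smallest p that 3 samples against 3 allow. Groups also did not overlap for Loxl2 (19.2% against 18.3%) and Loxl4 (0.969% against 0.837%, exact permutation p = 0.1 for both). The shares of Loxl3 (4.04% against 3.83%, exact permutation p = 0.4) and Plod3 (51.8% against 49.3%, exact permutation p = 0.2) overlapped between groups. These tests cannot pass 0.05, so the shares are given as measured values.

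**Figure D3:**
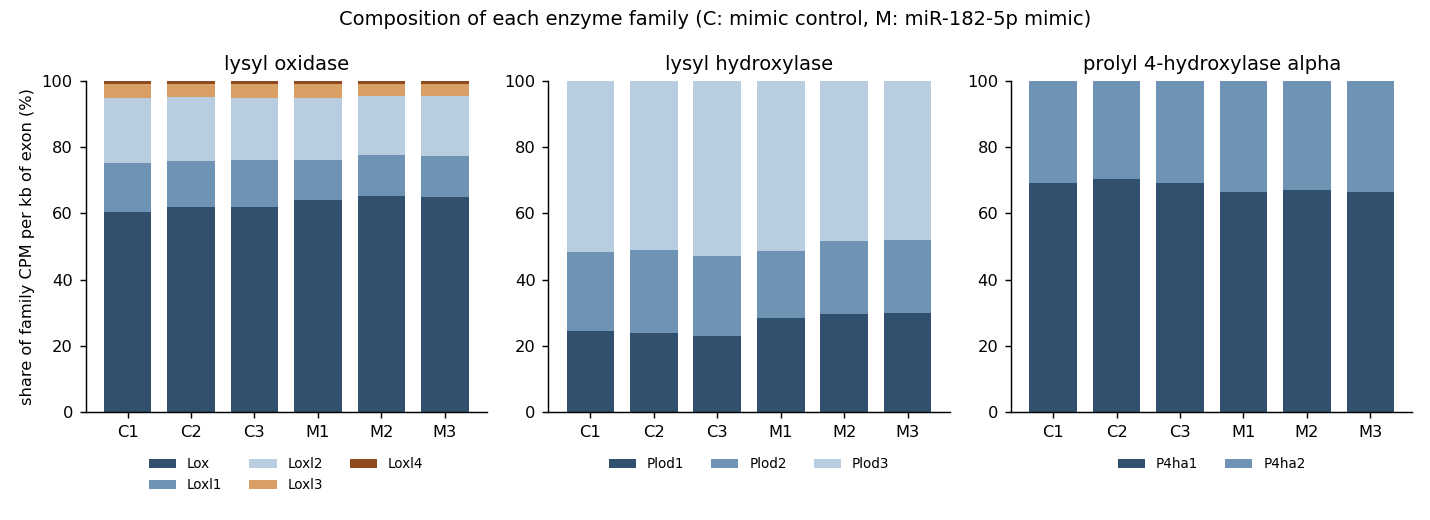
Share of each gene in its enzyme family, in percent of the family's CPM per kb of exon, as stacked bars for the 3 mimic control samples (C1 to C3) and the 3 miR-182-5p mimic samples (M1 to M3). The Plod1 band widens from 23.8% to 29.3% on average and the Lox band from 61.4% to 64.8%.

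Direct contrasts between enzymes within a sample do not depend on the scaling of libraries. These pairs were chosen after the values had been seen, so their p-values are only descriptive. The log2 difference between Plod2 and Plod1 was -0.36, -0.25 and -0.27 in the control samples and -0.82, -0.76 and -0.76 with mimic, a shift of -0.49 with no overlap. Plod2 minus Plod3 shifted by -0.11 with overlapping groups. P4ha2 minus P4ha1 shifted by 0.19, Lox minus Loxl1 by 0.31 and Lox minus Loxl2 by 0.15, each with no overlap. P4ha2 and Plod2, which are of different families, were paired as the most raised and the most lowered enzyme, so theirs was the widest shift by construction. P4ha2 minus Plod2 went from 0.27, 0.15 and 0.26 to 1.21, 1.04 and 1.07 on the log2 scale. The exact two-sided permutation p was 0.1 for each of the 5 shifts without overlap and 0.2 for Plod2 minus Plod3.

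The enzymes were next set against the collagens they act on. Col1a1 and Col3a1, chains of the main fibrillar collagens, were the most abundant of 14 substrate genes, at 19248 and 19711 CPM on average with mimic control. Together with Col1a2 they summed to 54217 ± 1157 CPM (SD, n = 3) in the control samples and 48527 ± 733 CPM with mimic, with no overlap. The lysyl oxidases went from 77, 78 and 81 reads per 1000 reads of these 3 collagens to 113, 113 and 107, an increase of 41.4% in the mean. Lox made most of the lysyl oxidase sum, at 2670 of 4253 CPM on average with mimic control and 3546 of 5384 CPM with mimic. The lower collagen sum also raises this ratio and the next. The prolyl 4-hydroxylase subunits P4ha1 and P4ha2, without P4ha3, went from 13.55, 14.02 and 13.93 to 20.55, 19.69 and 19.14 reads per 1000, an increase of 43.1%. Neither ratio overlapped between groups (exact permutation p = 0.1, the smallest possible). The lysyl hydroxylases were at 18.9 ± 0.334 reads per 1000 with mimic control and 18.4 ± 0.512 with mimic (exact permutation p = 0.3), and the groups overlapped. Against all 14 substrate genes, however, every mimic sample of the lysyl hydroxylases was below every control sample, at 13.3 ± 0.361 against 14.2 ± 0.241 reads per 1000 (exact permutation p = 0.1).

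**Figure D4:**
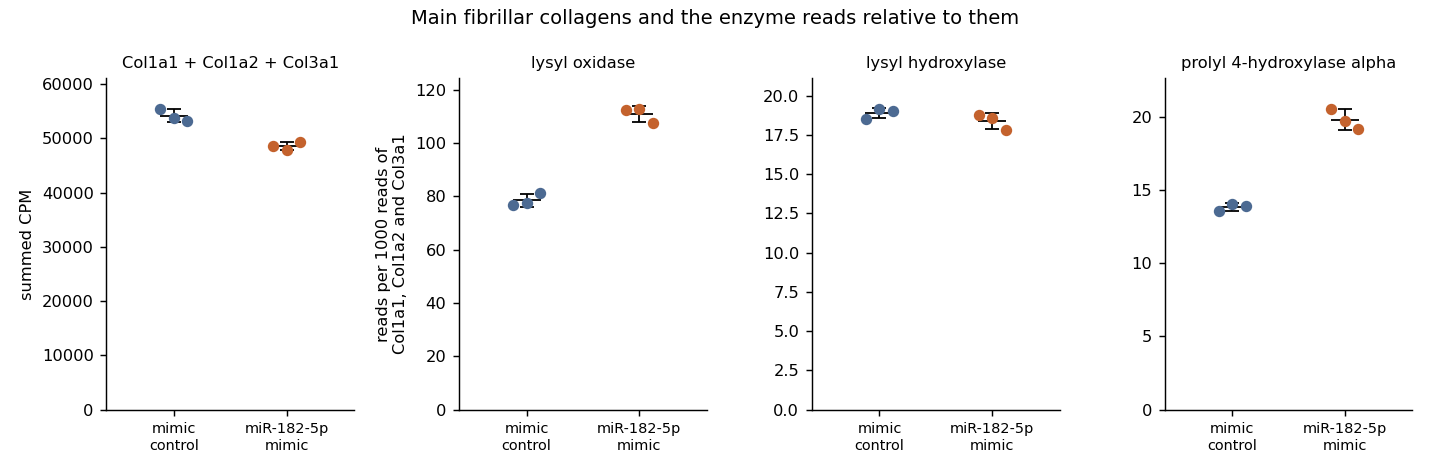
Summed CPM of Col1a1, Col1a2 and Col3a1 (left) and reads of each enzyme family per 1000 reads of these collagens (the other panels), per sample, with mean and SD in black and linear axes from 0. Lysyl oxidase and prolyl 4-hydroxylase (P4ha1 and P4ha2) reads per collagen read lie higher in the 3 mimic samples, and lysyl hydroxylase reads overlap.

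The substrate list itself moved in both directions. Of its 13 tested genes 3 rose and 5 fell, with a median log2 fold change of -0.046. Col11a1, a minor fibrillar chain, was called higher at 2.27-fold (adjusted p = 2.9e-11 by edgeR's quasi-likelihood test), from 28.3 to 64.3 CPM. Col24a1 was called lower at 0.622 of the control level (adjusted p = 0.000234 by edgeR), a call that was lost without mimic replicate 1. Col3a1 fell to 0.799 of its control level (adjusted p = 1.23e-05 by edgeR), whereas Col1a1 was at 0.969 of its control level and did not pass (adjusted p = 0.378 by edgeR). Col2a1 had 0 to 4 reads per sample and was not tested.

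Partners of the enzymes in the same pathway changed in both directions, and 2 of them, Tll1 and Pcolce2, were called. The list holds 24 genes, of which 21 were tested, and 8 rose, 7 fell and 6 did not pass, with a median log2 fold change of 0.014. In addition to P4ha1 and P4ha2, the third alpha subunit P4ha3 rose 1.09-fold (adjusted p = 0.0324 by edgeR) with overlapping groups. P4ha3 lost the test with upper-quartile factors and without control replicate 2, control replicate 3, mimic replicate 1 or mimic replicate 2 (adjusted p up to 0.138 by edgeR). The shared beta subunit P4hb, protein disulfide isomerase, rose 1.08-fold (adjusted p = 0.00751 by edgeR). P4hb was at 1708 to 1716 CPM in the control samples and at 1819 to 1927 CPM with mimic.

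The prolyl 3-hydroxylase complex modifies a few defined prolines and is built from P3h1, Crtap and cyclophilin B (Ppib). P3h1 rose 1.12-fold, whereas Crtap went to 0.878 and Ppib to 0.907 of the control level (adjusted p = 0.000848, 0.000669 and 0.0116 by edgeR), and Ppib lost the test without mimic replicate 2 or 3 (adjusted p up to 0.0695). Its relative P3h3 fell to 0.874 of the control level (adjusted p = 9.3e-05 by edgeR). P3h4, a partner of Plod1 and P3h3, was at 0.975 of its control level and P3h2, at 1.57 CPM on average, at 1.08-fold. Neither passed (adjusted p = 0.467 and 0.68 by edgeR).

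Among the helpers of lysyl hydroxylation, Fkbp10, a chaperone that works with Plod2, rose 1.15-fold, opposite to Plod2 itself, and Tmem38b, an endoplasmic reticulum channel, rose 1.19-fold (adjusted p = 0.000385 and 0.000581 by edgeR). Fkbp14 rose 1.08-fold, and Colgalt1, which adds galactose to hydroxylysine, rose 1.11-fold (adjusted p = 0.0384 and 0.00146 by edgeR). Fkbp14 lost the test in 7 of 14 alternatives, namely DESeq2 (adjusted p = 0.0735), upper-quartile factors, the replicate block and the fits without control replicate 1, control replicate 2, mimic replicate 1 or mimic replicate 2. The collagen chaperone Serpinh1, at 2876 CPM with mimic control, was at 0.999 of the control level with a 95% interval that spans 0 on the log2 scale (adjusted p = 0.984 by edgeR). Tgm2, a transglutaminase that crosslinks matrix by another chemistry, was at 1.01-fold and did not pass (adjusted p = 0.709 by edgeR). Colgalt2 had 0 to 5 reads per sample, and Mia3 was listed at 0 in all 6 samples, so neither was tested.

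The enzymes that trim collagen propeptides held both partner calls. Tll1, a tolloid protease, was called higher at 1.84-fold (adjusted p = 0.00114 by edgeR) at a low level of 31 to 44 reads per control sample and 65 to 88 reads per mimic sample. Pcolce2, an enhancer of this cleavage, was called lower with a log2 fold change of -0.59 (adjusted p = 3e-05 by edgeR). It went from 11.7, 11.5 and 11.6 CPM to 8.36, 7.40 and 7.40 CPM and sat at the 1.5-fold cutoff, so its call was lost with DESeq2 size factors and without control replicate 1, mimic replicate 2 or mimic replicate 3. Adamts2, the main N-propeptidase, fell to 0.829 of the control level, Adamts14 to 0.811 and Pcolce to 0.932 (adjusted p = 4.41e-06, 0.0249 and 0.00961 by edgeR). Adamts14 lost the test without control replicate 1, control replicate 3 or mimic replicate 3 (adjusted p up to 0.115 by edgeR), and Pcolce without mimic replicate 2 (adjusted p = 0.0528 by edgeR). Bmp1, the main C-propeptidase, was at 1.04-fold, and Adamts3 at 0.798 of its control level, and neither passed (adjusted p = 0.172 and 0.201 by edgeR). Tll2 had 0 to 3 reads per sample.

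Scaffolds that hold lysyl oxidases on the fibre and genes that supply copper or ascorbate were counted as a further list of 9 genes, of which 3 rose and 1 fell, with a median log2 fold change of -0.0066. Fmod, encoding fibromodulin, a proteoglycan that binds collagen and Lox, was called higher at 2.24-fold (adjusted p = 5.17e-12 by edgeR). Fn1, fibronectin, a binding partner of Lox, fell to 0.720 of the control level (adjusted p = 6.41e-07 by edgeR). Postn, periostin, did not pass (log2 fold change -0.069, adjusted p = 0.0965 by edgeR), though it did with DESeq2, with limma-voom and without mimic replicate 1 (adjusted p down to 0.0248).

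Lists of genes known to respond to hypoxia or to TGF-beta, conditions under which several of the 10 enzymes are known to be induced, were set beside them. Of 17 tested hypoxia-induced genes 10 rose and 3 fell, against 23.2% and 23.5% of all genes. Each of the 17 changed by less than 1.5-fold. Their median log2 fold change was 0.21, against 0.19 for the enzymes and -0.0043 for all genes. In 12 of the 17 all mimic samples were above the controls, and in 3 all were below, against 27.3% and 27.5% of all genes. Of the 2 most abundant, Aldoa had a log2 fold change of 0.082 and did not pass (adjusted p = 0.0694 by edgeR, under 0.05 with DESeq2, with limma-voom and without control replicate 1 or mimic replicate 1). Ldha fell with a log2 fold change of -0.095 (adjusted p = 0.0159 by edgeR), which lost the test without control replicate 1, control replicate 2 or mimic replicate 2 (adjusted p up to 0.102). Of 6 TGF-beta-induced genes 3 rose and 2 fell, with a median of 0.25. Ccn2, the most abundant of them, rose with a log2 fold change of 0.52 (adjusted p = 8.51e-06 by edgeR). Tgfbi and Ltbp2 were called lower, at 0.251 and 0.425 of the control level. The 5 smooth muscle markers summed to 3454 to 3626 CPM in control samples and 4130 to 4496 CPM with mimic. Acta2 and Tagln, at 2364 and 1123 CPM on average with mimic control, made most of this sum. Of the 5, Acta2, Tagln and Cnn1 rose. Myh11 (log2 fold change -0.018) and Des (-0.097) did not pass (adjusted p = 0.828 and 0.46 by edgeR). Unlike the smooth muscle sum, the fibroblast and progenitor markers were mostly lower, with 6 of 8 tested genes lower, 1 higher and 4 called lower (Pdgfra, Pi16, Cd34 and Dcn). The part of these cell-type and pathway differences in the enzyme changes was not tested.

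**Figure D5:**
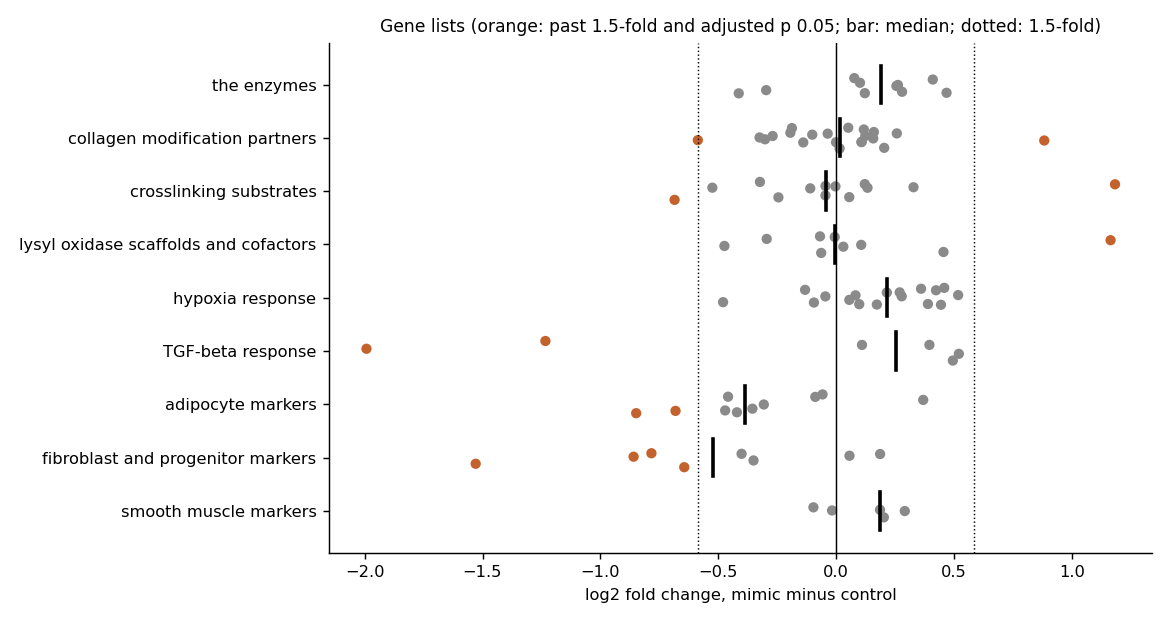
Log2 fold change (mimic minus control) of every tested gene of 9 lists, one point per gene, with a black bar at the median and orange for genes past both 1.5-fold and an adjusted p of 0.05. The enzymes and the hypoxia list have medians of 0.19 and 0.21, and the adipocyte and fibroblast lists have medians of -0.39 and -0.52.

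The promoter table (RefSeq, GRCm38.p6, 250 bases before to 50 after the start site) held 5 of the 10 genes, Loxl4, Plod1, Plod3, P4ha1 and P4ha2. The letters ACGTG, 1 form of the core of the hypoxia response element, occurred on either strand in 6447 of all 32851 promoters (19.62%). The form GCGTG was not counted, and the first P4ha2 stretch below holds it in lower case. The letters ACGTG occurred 2 times in P4ha2, 1 time each in P4ha1 and Plod3, and in neither Loxl4 nor Plod1. The stretches around these matches are shown with the counted core in capitals, on the plus strand, 5′ to 3′.
P4ha2, chr11:54100834-54100862: tgtgcatcgcatACGTGcagcgcgtggcg
P4ha2, chr11:54100922-54100950: cgggaggtggggACGTGgcggaggctcaa
P4ha1, chr10:59323268-59323296: tgtgacagagcgCACGTagcgagggctgc
Plod3, chr5:136986953-136986981: cttgaagtcattACGTGatgttcccttgg
In P4ha1 the core lies on the minus strand and so reads CACGT here. The match in Plod3, which fell, has the same core as those in P4ha1 and P4ha2, which rose. No factor binding was measured, and a link between these matches and the changes was not tested.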

How the data were processed

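Poly(A)-selected, strand-specific libraries were sequenced from 3 mimic control and 3 miR-182-5p mimic samples. For each sample the authors deposited a list of unnormalized counts of reads by gene symbol. The submitters' processing notes name bcl2fastq, TopHat2, HTSeq and mm9, while the annotation and the strand setting are not given in the sources used here. The 5 tally lines were left out of library sizes and tests (12.7% to 13.0% of reads outside genes, 0.65% to 0.67% ambiguous).

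Counts were fitted in R 4.3.3 with edgeR 4.0.16 (TMM, filterByExpr with a minimum count of 10, two-sided quasi-likelihood test of the 2 groups, no block), with Benjamini-Hochberg adjustment over 13117 genes. A pseudocount of 0.1 was added to CPM before log2 differences between genes, and intervals are at 95%. Exon lengths, positions and UTRs come from GENCODE M21 on GRCm38, matched by symbol and not used to convert the mm9 counts. Shares and ratios were compared by exact permutation over samples (scipy 1.17.1). On simulated data of 13036 genes, 183 of 200 given a log2 change of 1 passed an adjusted p under 0.05 in the right direction. No fold cutoff was used there, and 16 unchanged genes also passed. No enzyme changed by that much, so the simulation does not measure recovery of changes of their size.

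All 10 enzymes and every partner gene were named, and of each other list the called genes and the 2 most abundant; marker lists were given as a whole or in part. A gene of the TGF-beta list is not reported here, and the list's values leave it out. The enzymes and the gene lists were chosen with earlier results of these data known. Alternatives were DESeq2 1.42.0, limma-voom (limma 3.58.1), other normalizations, filters and cutoffs, the replicate block, thinned libraries and leaving out each sample.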

Additional observations from a re-analysis of the deposited data

How the results depend on the processing

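Lox, Loxl2, Loxl3, Plod2, Plod3, P4ha1 and P4ha2 kept their direction and their side of the adjusted p of 0.05 under all 14 alternative fits, and Loxl1, Loxl4 and Plod1 kept their direction but not always their side, as given with each gene. No enzyme was called under any alternative that kept a fold cutoff, whereas 9 of 10 passed with no fold cutoff, as did 15 partners, 8 substrates and 6124 of all genes. With a 2-fold cutoff 280 genes, 0 partners and 1 substrate were called, and with edgeR's glmTreat against 1.5-fold 298 genes, 0 partners and 1 substrate. Under the other fits the count over all genes ran from 843 (DESeq2) to 1028 (no filter), and from 902 to 1011 with 1 sample left out. With DESeq2 size factors 1 partner was called in place of 2, and leaving out 1 sample gave 1 to 2 partners and 1 to 2 substrates. These cutoffs change the counts by construction.

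Same-numbered samples did not deviate together (correlations of -0.18, -0.044 and -0.079), so the numbers were not taken to pair them. With the replicate block 925 genes and 0 enzymes were called, 6 enzymes rose and 2 fell, and Plod1 lost the test (adjusted p = 0.0669 by edgeR). Per 1000 reads of all 14 substrate genes the rise was 21.4 reads for the lysyl oxidases (32.5 with 3 collagens). For the prolyl 4-hydroxylase subunits P4ha1 and P4ha2 it was 3.94 reads (5.96 with 3 collagens). The larger sum lowers each ratio, and it also fell by less with mimic. Its mean changed by -5117 CPM, against -5689 CPM for the 3 collagens. The size of the rise thus depends on the collagens chosen. With no length scaling the shift in share was -1.55 points for Loxl1 and 6.42 points for Plod1. Matching TGCCAAA in place of TTGCCAA gave 2 enzyme genes with a 3′-UTR match in place of 0. Depth limits genes such as Tll1 (31 to 88 reads per sample) and P3h2 (32 to 52) more than the enzymes, of which Loxl4 had the fewest reads (916 to 1220).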
